A study of Mus musculus with 4 samples.

Results

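The genes described here are 10 members of the BCL2 family, which sets whether a cell survives or dies through its mitochondria. They were taken as a fixed list of pro-survival, effector and BH3-only genes, and a member was measured where a probe set of the array names that gene and no other. 9 of the 10 members had such a probe set, among 19938 genes measured in all, and each of the 9 had a single probe set. *Bax*, which encodes an effector, is not listed in the gene table used here and was not analysed. Expression was measured in bone marrow cells of the Ly6G+ myeloid lineage, which are called myeloid-derived suppressive cells (MDSCs) when they suppress T lymphocytes. The study asked how these cells differ when lysosomal acid lipase (LAL) is lost. 2 arrays came from wild type mice (*lal+/+*, labelled WT) and 2 from LAL knock-out mice (*lal-/-*, labelled LALKO), all 5 months old and backcrossed for 10 generations onto FVB/N, with no further allele or treatment named. The knock-out is present in every cell of the mouse, so that the marrow around these cells lacks LAL as well. The labels describe the cells as CD11b+ and Gr-1+, and the methods describe magnetic selection with an antibody to Ly6G.

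BCL2 family proteins meet at the outer membrane of the mitochondrion. The effectors BAK and BAX form pores in it, through which cytochrome c leaves and activates caspases. The pro-survival proteins BCL2, BCL-XL (encoded by *Bcl2l1*) and MCL1 hold the effectors in check. The BH3-only proteins BID, BAD, BIM (*Bcl2l11*), PUMA (*Bbc3*) and NOXA (*Pmaip1*) carry death signals to them, by binding the pro-survival proteins or the effectors themselves. Neutrophils are short-lived cells that depend on MCL1 throughout their development, whereas BCL2 is known for its role in the survival of lymphocytes.

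*Lipa* is the gene of LAL, and its log2 levels were 9.50 and 9.05 in *lal+/+* and 7.37 and 7.49 in *lal-/-* cells (log2 difference -1.85, standard error 0.17, adjusted p = 4.17e-04 from limma). Both arrays labelled *lal-/-* were low, although how its probes lie to the disrupted stretch is not stated. Here and below a level is a quantile normalized log2 value, a difference is *lal-/-* minus *lal+/+* on that scale, and a called gene, higher or lower, had an adjusted p (Benjamini-Hochberg) below 0.05 together with a change of 2-fold or more. Of the 19938 genes, 7.56% were called higher in *lal-/-* cells and 3.24% lower, and the median difference was 0.08. With arrays aligned to a common median these shares were 13.1% and 2.34% and the median 0.12, and with the values as deposited 10.1% and 3.17% and the median -0.05. The 95th percentile of 1035 olfactory receptor probe sets, whose genes are silent outside the nose in the main, was 6.79 in *lal+/+* and 6.29 in *lal-/-* cells and marks the level of background. The methods give a number of mice but not which of them, or how many, stand behind an array, so that p-values measure only the scatter among these 4 arrays, which may be technical.

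In *lal-/-* MDSCs, the pro-survival gene *Bcl2* was lower, the effector gene *Bak1* and the BH3-only gene *Bad* were higher, and the other 6 measured members were not called. 2 of 9 members called higher stand beside 7.56% of all genes, and 1 of 9 called lower beside 3.24%. The median difference of the 9 members was 0.08, the same as over all genes. The 2 arrays of a genotype lay apart from the 2 of the other in all 9 members, which was also so in 65.7% of all genes, so that a gap between the groups is by itself no sign of a change here.

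**Figure D1:**
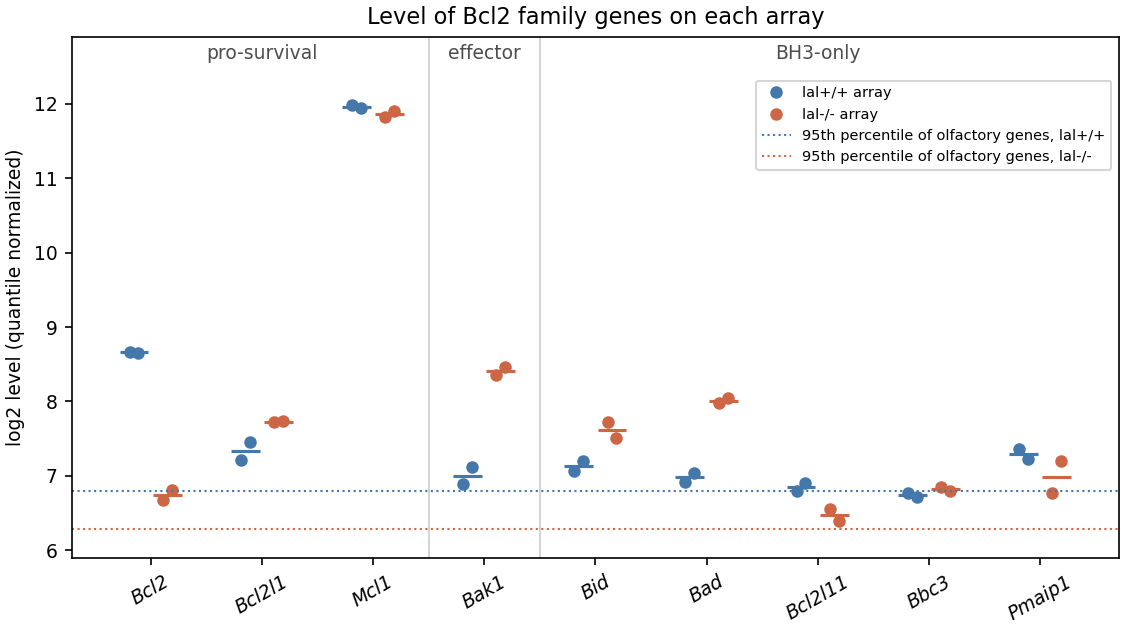
Log2 level of the 9 measured members on each of the 4 arrays, 1 point for each array, with short bars at the genotype means and dotted lines at the 95th percentile of olfactory receptor probe sets (6.79 in *lal+/+* and 6.29 in *lal-/-*). *Bcl2* lies near 8.66 in *lal+/+* and 6.74 in *lal-/-* cells, *Bak1* and *Bad* lie higher in *lal-/-* cells, and the levels of different genes cannot be ranked because each comes from its own probes.

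*Bcl2*, the founding pro-survival gene of the family, read 8.67 and 8.65 in *lal+/+* and 6.67 and 6.81 in *lal-/-* cells. Both *lal-/-* arrays were low, with a gap of 1.84 between the genotypes and no overlap. The mean fell from 8.66 ± 0.01 to 6.74 ± 0.10 (SD, n = 2 arrays), a 3.77-fold decrease (log2 difference -1.92, standard error 0.12, adjusted p = 1.22e-04 from limma). 2.03% of all genes had a larger difference in either direction. The level that was left in *lal-/-* cells was above the 6.29 of silent genes.

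The other pro-survival members were not called. *Bcl2l1*, which encodes BCL-XL, read 7.21 and 7.45 in *lal+/+* and 7.72 and 7.74 in *lal-/-* cells. Both *lal-/-* arrays lay above both *lal+/+* arrays, in the direction opposite to *Bcl2*, but the difference of 0.40 (95% interval 0.08 to 0.72, adjusted p = 0.0663 from limma) did not pass. *Bcl2l1* is spliced into a long form that protects cells and a short form that promotes death, and a single value per gene does not tell them apart. *Mcl1*, of the pro-survival protein on which neutrophils depend, read 11.98 and 11.94 in *lal+/+* and 11.82 and 11.90 in *lal-/-* cells. The 4 arrays lay within a narrow range, with a difference of -0.10 (95% interval -0.39 to 0.19, adjusted p = 0.577). The interval leaves room for a change of *Mcl1* RNA between 0.764 and 1.14 of the *lal+/+* level. Its sign was positive with arrays aligned to a common median (0.19) and with the values as deposited (0.02).

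*Bak1*, whose product forms pores in the outer mitochondrial membrane, was the only effector gene measured. It read 6.89 and 7.12 in *lal+/+* and 8.36 and 8.46 in *lal-/-* cells. Both *lal-/-* arrays were high, with a gap of 1.25 between the genotypes. The SD between arrays was 0.16 in *lal+/+* and 0.07 in *lal-/-* cells (n = 2 each), and the increase was 2.66-fold (log2 difference 1.41, standard error 0.14, adjusted p = 4.77e-04 from limma). 5.08% of all genes had a larger difference. The *lal+/+* mean of 7.0 lay little above the 6.79 of silent genes, which makes the size of the change less certain.

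Among the 5 BH3-only genes, *Bad* was the one that was called. Its product binds BCL2 and BCL-XL, and is kept away from them in the cytosol by 14-3-3 proteins when survival kinases phosphorylate it. *Bad* read 6.92 and 7.04 in *lal+/+* and 7.98 and 8.05 in *lal-/-* cells, and both *lal-/-* arrays were high. The *lal+/+* mean of 6.98 lay little above the 6.79 of silent genes, which makes the size of the change less certain. The increase was 2.04-fold (log2 difference 1.03, standard error 0.12, adjusted p = 0.00115 from limma), just past the fold threshold. It was 0.97 without *lal+/+* replicate 1 and 0.99 without *lal-/-* replicate 2, short of that threshold, with an adjusted p of 0.00338 and 0.00802.

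*Bid* encodes a BH3-only protein that caspase-8 cleaves, which links death receptors to the mitochondria. It read 7.06 and 7.20 in *lal+/+* and 7.72 and 7.51 in *lal-/-* cells. The *lal-/-* arrays were the higher ones, and the 1.40-fold difference (0.49 on the log2 scale, 95% interval 0.16 to 0.81) passed the adjusted p (0.0353 from limma) but not the fold threshold. Without a fold threshold *Bid* joined *Bak1* and *Bad*, so that 3 of 9 members were higher and 1 lower, where 19.8% of all genes were higher and 9.85% lower. The adjusted p of *Bid* was above the threshold with all probe sets in the adjustment (0.0694) and without *lal+/+* replicate 1 (0.0843), *lal-/-* replicate 1 (0.245) or *lal-/-* replicate 2 (0.0736).

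*Bcl2l11*, which encodes BIM, a BH3-only protein with a known part in the death of neutrophils and lymphocytes, read 6.80 and 6.91 in *lal+/+* and 6.55 and 6.39 in *lal-/-* cells. The *lal-/-* arrays were the lower ones, by -0.38 (95% interval -0.69 to -0.07, adjusted p = 0.0665), and the difference did not pass. *Bbc3*, of the p53 target PUMA, read 6.77 and 6.71 against 6.85 and 6.79. Its 4 values lay close together, the *lal+/+* mean of 6.74 was below the level of silent genes, and the difference of 0.08 (95% interval -0.21 to 0.36, adjusted p = 0.673) was -0.01 with the values as deposited. *Pmaip1*, of the MCL1 partner NOXA, read 7.36 and 7.23 in *lal+/+* and 6.77 and 7.20 in *lal-/-* cells. Only *lal-/-* replicate 1 was low, and the difference of -0.31 (95% interval -0.72 to 0.09, adjusted p = 0.213) was -0.10 without that array and -0.53 without *lal-/-* replicate 2.

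**Figure D2:**
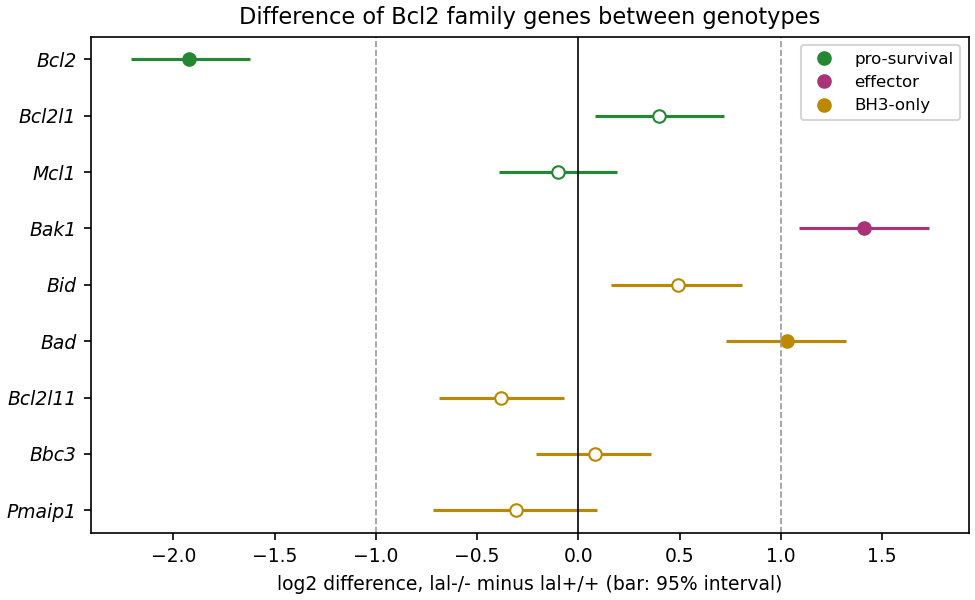
Log2 difference between *lal-/-* and *lal+/+* cells for the 9 measured members with its 95% interval from limma, colored by role, filled where the gene was called, with dashed lines at a 2-fold change. *Bcl2* (-1.92) lies on the opposite side of *Bak1* (1.41) and *Bad* (1.03), and the intervals of *Mcl1*, *Bbc3* and *Pmaip1* include 0.

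MCL1 is held by NOXA and by BIM, and a difference of log2 levels taken within an array is free of any shift of that array as a whole. *Mcl1* minus *Pmaip1* was 4.62 and 4.71 in *lal+/+* and 5.05 and 4.70 in *lal-/-* cells. The genotypes overlapped, and the change of 0.21 had an exact two-sided permutation p of 0.667. *Mcl1* minus *Bcl2l11* was 5.18 and 5.03 in *lal+/+* and 5.26 and 5.51 in *lal-/-* cells. Here the *lal-/-* arrays were both higher, by 0.28, with an exact permutation p of 0.333, the smallest that 2 arrays against 2 allow. With the values as deposited, the changes were 0.34 and 0.51. Both within-array differences were computed for this change only, since the level of a gene cannot be set against that of another across probe sets.

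The sequences in front of the 3 called genes are shown because these are the members that moved, *Bak1* and *Bad* in the same direction and *Bcl2* in the other. Each window runs from 250 bases before to 50 bases after a start site of RefSeq on GRCm38.p6, 300 bases in all, and 8 of the 9 measured members matched the table of such windows with 14 windows. Capitals mark the GC box, GGGCGG on the strand shown or CCGCCC where it lies on the other, a motif bound by SP1-like factors. *Bcl2* is at chr1:106714241-106714540 on the minus strand, *Bak1* at chr17:27028578-27028877 on the minus strand and the upstream start of *Bad* at chr19:6941611-6941910 on the plus strand.
*Bcl2*: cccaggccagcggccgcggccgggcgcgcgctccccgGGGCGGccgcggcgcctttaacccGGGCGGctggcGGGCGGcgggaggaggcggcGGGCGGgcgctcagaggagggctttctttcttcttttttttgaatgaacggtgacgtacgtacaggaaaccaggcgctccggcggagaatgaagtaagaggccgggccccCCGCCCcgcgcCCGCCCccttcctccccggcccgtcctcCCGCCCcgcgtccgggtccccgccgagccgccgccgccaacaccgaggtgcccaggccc
*Bak1*: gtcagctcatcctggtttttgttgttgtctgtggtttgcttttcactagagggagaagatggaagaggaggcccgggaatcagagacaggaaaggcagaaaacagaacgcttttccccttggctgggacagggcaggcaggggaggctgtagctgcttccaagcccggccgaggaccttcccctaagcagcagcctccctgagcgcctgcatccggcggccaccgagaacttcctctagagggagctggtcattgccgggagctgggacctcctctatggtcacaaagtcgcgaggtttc
*Bad*: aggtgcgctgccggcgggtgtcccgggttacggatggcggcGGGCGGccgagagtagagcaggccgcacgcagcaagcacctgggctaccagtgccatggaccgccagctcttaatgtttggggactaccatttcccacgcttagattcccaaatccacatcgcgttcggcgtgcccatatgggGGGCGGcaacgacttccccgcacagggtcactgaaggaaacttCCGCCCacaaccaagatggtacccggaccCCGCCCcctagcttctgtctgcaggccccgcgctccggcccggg
The *Bcl2* window holds 7 GC boxes and is 76.0% G and C, the *Bak1* window holds 0 and is 58.3% G and C, and the *Bad* window holds 4 and is 65.7% G and C. The windows of all genes had a median of 52.7% G and C, and a GC box was in 9 of the 14 windows and in 35.7% of 32851 windows of 300 bases. A further *Bad* window, chr19:6942312-6942611 on the plus strand, holds 0 GC boxes. *Bbc3*, which was not called, had 4 to 7 GC boxes in each of its 3 windows, of which the last 2 overlap. The part of this motif in the level of these genes was not tested. The core of the site of PU.1, a transcription factor of myeloid cells and B cells, was searched as GAGGAA on both strands. It was in 4 of the 14 windows, 1 each of *Bcl2*, *Bak1*, *Bid* and *Bad* (the further window), and in 28.3% of all windows. The CCAAT box (CCAAT, either strand) was in 4 of the 14 windows and in 37.4% of all, and the TATA box TATAAA was in 0 of the 14 on either strand and in 13.6% of all.

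Of 13 other BCL2 family genes measured, 0 were higher and 1 was lower in *lal-/-* cells, beside 7.56% and 3.24% of all genes. The median difference of the 13 was 0.10. The lower gene was *Bcl2a1c*, of the pro-survival A1 group, with 9.07 and 8.87 in *lal+/+* and 7.49 and 7.51 in *lal-/-* cells. Both *lal-/-* arrays were low, a 2.77-fold decrease (log2 difference -1.47, standard error 0.13, adjusted p = 3.30e-04 from limma). The A1 genes are near-identical copies, 3 further probe sets name 4 of them together and were not used, and it is therefore uncertain which copy was read. *Bcl2l2*, which encodes the pro-survival BCL-W, differed by 0.38 (adjusted p = 0.114), *Bok*, an effector-like gene, by 0.22 (adjusted p = 0.273), and the BH3-only genes *Bmf* and *Bik* by 0.09 and -0.08 (adjusted p = 0.676 and 0.778). These 4 genes were not called, and all of them were among the 8 of 13 that lay below the level of silent genes in *lal+/+* cells. Changes of such genes may be compressed on the array. Without a fold threshold 2 of the 13 were higher and 1 lower, beside 19.8% and 9.85% of all genes. The 2 were *Bnip3l* (1.51-fold, adjusted p = 0.00951 from limma), at 11.58 and 11.59 in *lal+/+* and 12.17 and 12.19 in *lal-/-* cells, and *Bcl2l15* (1.41-fold, adjusted p = 0.0293). *Bcl2l15* lay below the level of silent genes in *lal+/+* cells.

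Of 14 genes that act where the mitochondrion releases its contents or downstream of it, 1 was higher and 0 were lower in *lal-/-* cells, beside 7.56% and 3.24% of all genes. 13 of the 14 had a positive difference, with a median of 0.40, where 11909 of 19938 genes did, with a median of 0.08. The higher gene was *Vdac1*, of a channel of the outer membrane, at 7.19 and 6.57 in *lal+/+* and 8.44 and 8.64 in *lal-/-* cells. The *lal+/+* arrays were both low but lay apart from each other, and the increase was 3.16-fold (log2 difference 1.66, standard error 0.21, adjusted p = 0.00145 from limma). *Apaf1*, the scaffold of the apoptosome, was 1.52-fold higher with an adjusted p of 0.0199, short of the fold threshold, and was called with arrays aligned to a common median (1.09). *Cycs*, which encodes cytochrome c, differed by 0.36 (adjusted p = 0.0721), and *Casp9*, the caspase that the apoptosome activates, by 0.22 (adjusted p = 0.307). *Casp9* was among the 4 of 14 genes that lay below the level of silent genes in *lal+/+* cells.

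Among 5 inhibitor of apoptosis genes, *Birc5* was higher and the other 4 were not called, and the median was -0.33. Of all genes 7.56% were called higher and 3.24% lower. *Birc5* encodes survivin, which is also a part of the chromosomal complex that drives mitosis. It read 8.07 and 8.22 in *lal+/+* and 9.77 and 9.63 in *lal-/-* cells, a 2.94-fold increase (log2 difference 1.56, standard error 0.13, adjusted p = 2.73e-04 from limma). In the same arrays 7 of 9 measured markers of cell division were higher, with a median of 1.46, and their part in the difference of *Birc5* was not tested. *Xiap*, which encodes a direct caspase inhibitor, differed by 0.38 (adjusted p = 0.143). *Birc3* (-0.85, adjusted p = 0.00216 from limma) and *Birc6* (-0.54, adjusted p = 0.0137) were lower, past the adjusted p and short of the fold threshold. Without a fold threshold 1 of the 5 genes was higher and 2 were lower, beside 19.8% and 9.85% of all genes.

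Of 12 measured genes of death receptors and their complexes, 2 were higher and 0 lower, beside 7.56% and 3.24% of all genes. The median of the 12 was 0.15. Both higher genes encode receptors. *Fas*, the receptor of *Fas* ligand, read 7.55 and 6.82 in *lal+/+* and 9.36 and 9.52 in *lal-/-* cells. The *lal+/+* arrays lay apart from each other and both below the *lal-/-* arrays, and the increase was 4.77-fold (log2 difference 2.25, standard error 0.23, adjusted p = 6.29e-04 from limma). *Tnfrsf1a*, of TNF receptor 1, was 2.57-fold higher (log2 difference 1.36, standard error 0.13, adjusted p = 4.56e-04). Genes that carry the signal from these receptors to *Bid* were not called. Of the 12 genes, 7 lay below the level of silent genes in *lal+/+* cells, *Fadd* and *Tradd* among them, where changes may be compressed. *Casp8*, of the caspase that cleaves BID, differed by -0.32 (adjusted p = 0.144), and *Cflar*, of the caspase-8 regulator FLIP, by -0.46 (adjusted p = 0.0260, short of the fold threshold). Both differences turned positive with arrays aligned to a common median, to 0.33 and 0.15. *Cflar* was read from the brightest of 3 probe sets, and the mean of the 3 differed by 0.24 (adjusted p = 0.224 from limma), in the other direction.

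25 measured genes encode known regulators of the members, of which 4 were higher and 3 lower, beside 7.56% and 3.24% of all genes. The median of the 25 was 0.31. The higher genes included *Akt1* (2.29-fold, adjusted p = 7.35e-04 from limma) and *Akt2* (2.45-fold, adjusted p = 0.00301), of kinases that phosphorylate BAD, and *Ywhab* (2.80-fold, adjusted p = 2.55e-04), of a 14-3-3 protein that binds phosphorylated BAD. *Csf2rb*, of the shared receptor chain for GM-CSF and IL-3, was 2.08-fold higher (log2 difference 1.06, adjusted p = 0.00572) and 0.79 without *lal+/+* replicate 2, short of the fold threshold. The lower genes were *Csf3r*, of the receptor for G-CSF, a survival factor of neutrophils, *Huwe1*, of a ubiquitin ligase of MCL1, and *Foxo1*, of a transcription factor known to activate *Bcl2l11*. *Csf3r* read 10.95 and 10.92 in *lal+/+* and 8.96 and 9.10 in *lal-/-* cells (3.75-fold lower, adjusted p = 1.23e-04). *Huwe1* was 2.80-fold lower (log2 difference -1.49, adjusted p = 2.57e-04) and *Foxo1* 2.63-fold lower (-1.40, adjusted p = 5.89e-04). The related *Foxo3* differed by 0.18 (adjusted p = 0.363), and *Mdm2*, of the ligase of p53, was 1.62-fold higher, short of the fold threshold (adjusted p = 0.00579), and called with arrays aligned to a common median (1.29) and with the values as deposited (1.12).

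**Figure D3:**
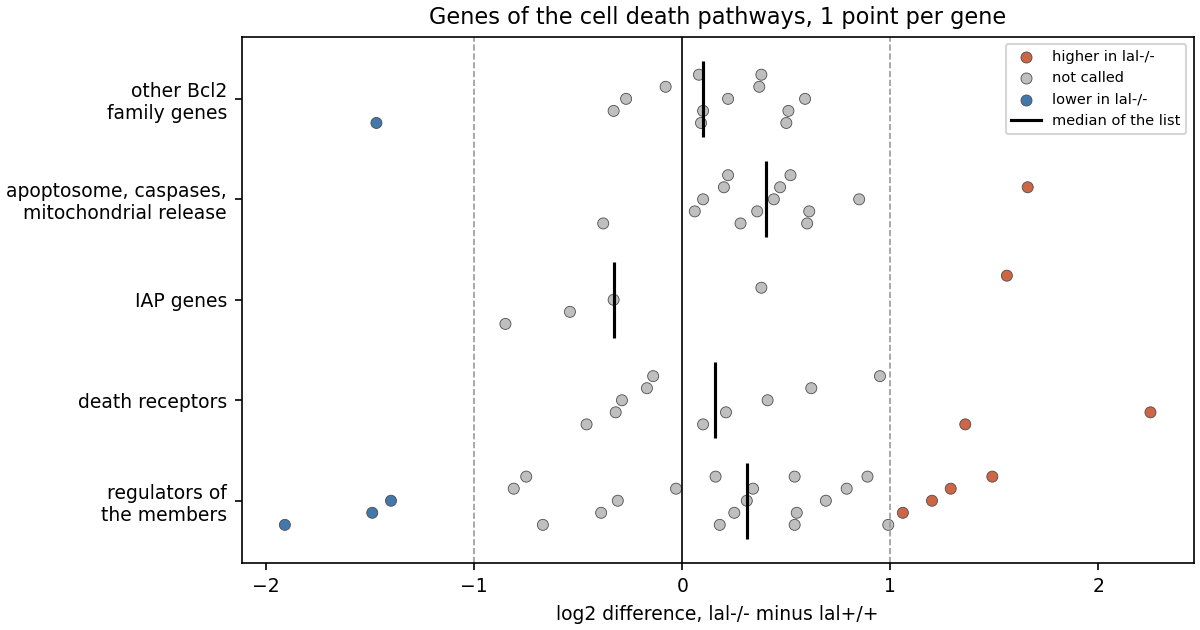
Log2 difference between *lal-/-* and *lal+/+* cells for 69 genes of 5 lists around the BCL2 family, 1 point for each gene, colored where the gene was called, with a black line at the median of each list and dashed lines at a 2-fold change. 8 genes were called higher, led by *Fas* (2.25), and 4 lower, led by *Csf3r* (-1.91).

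Over the 5 lists, 8 of 69 genes were called higher and 4 lower, beside 7.56% and 3.24% of all genes, and the median difference was 0.25 against 0.08. The number of higher genes moved with the scaling, as did that of all genes. It was 17 with arrays aligned to a common median and 14 with the values as deposited. The lists were described by these counts and not tested as sets.

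Markers of other cell types differed between the genotypes. *Ly6g*, of the antigen used for selection, read 10.19 and 9.80 in *lal+/+* and 12.91 and 12.84 in *lal-/-* cells. All 9 measured B cell markers were lower in *lal-/-* cells, with a median of -3.48, and their summed linear signal was 8034 to 8985 in *lal+/+* and 646 to 674 in *lal-/-* cells. In *lal-/-* cells *Ms4a1*, *Cr2*, *Fcer2a* and *Ebf1* were below the level of silent genes. Of 9 markers of monocytes and macrophages 7 were lower, and the sum was 5881 to 6300 in *lal+/+* and 1020 to 1022 in *lal-/-* cells. *Mrc1*, *Spic* and *Cd163* were below the level of silent genes in *lal-/-* cells (*Cd163* in *lal+/+* cells too). The other 2 had positive differences and were not called, *Ccr2* (0.83, adjusted p = 0.016 from limma) and *Fcgr1* (0.22, adjusted p = 0.351). Both lay below the level of silent genes in *lal+/+* cells. Of 7 T cell markers *Cd2* (log2 difference -4.40), *Cd3g* (-2.01) and *Cd3e* (-1.28) were lower and *Cd3d* was higher (5.34-fold), and *Cd4* was below the level of silent genes in *lal-/-* cells. Their sum was 4651 to 4824 in *lal+/+* and 7424 to 7498 in *lal-/-* cells, and without *Cd3d* it went the other way, from 3435 to 3497 in *lal+/+* to 674 to 682 in *lal-/-* cells. BCL2 is known from B and T cells, and the B cell markers and 3 of the T cell markers fell along with *Bcl2*. Their part in it was not tested, and in these bulk samples fewer cells of a type and less RNA per cell cannot be told apart.

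Markers of neutrophil stages differed too. All 6 markers of primary granules, which promyelocytes make, were higher in *lal-/-* cells (median 2.93), and their sum was 337 to 348 in *lal+/+* and 2999 to 3062 in *lal-/-* cells. All 6 were below the level of silent genes in *lal+/+* cells. Of 8 secondary granule markers 6 were higher, and their sum was 23162 to 24542 in *lal+/+* and 61046 to 62440 in *lal-/-* cells. Of 8 mature neutrophil markers 2 were higher and 2 lower, with sums of 51058 to 51945 and 57462 to 59053. The sum of 6 erythroid markers was 1194 to 1290 in *lal+/+* and 1223 to 1259 in *lal-/-* cells, and none of them was called. The sum of the 9 cell division markers was 3597 to 3751 in *lal+/+* and 5825 to 6148 in *lal-/-* cells. The part of these shifts in the higher *Bak1* and *Bad* was not tested.

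**Figure D4:**
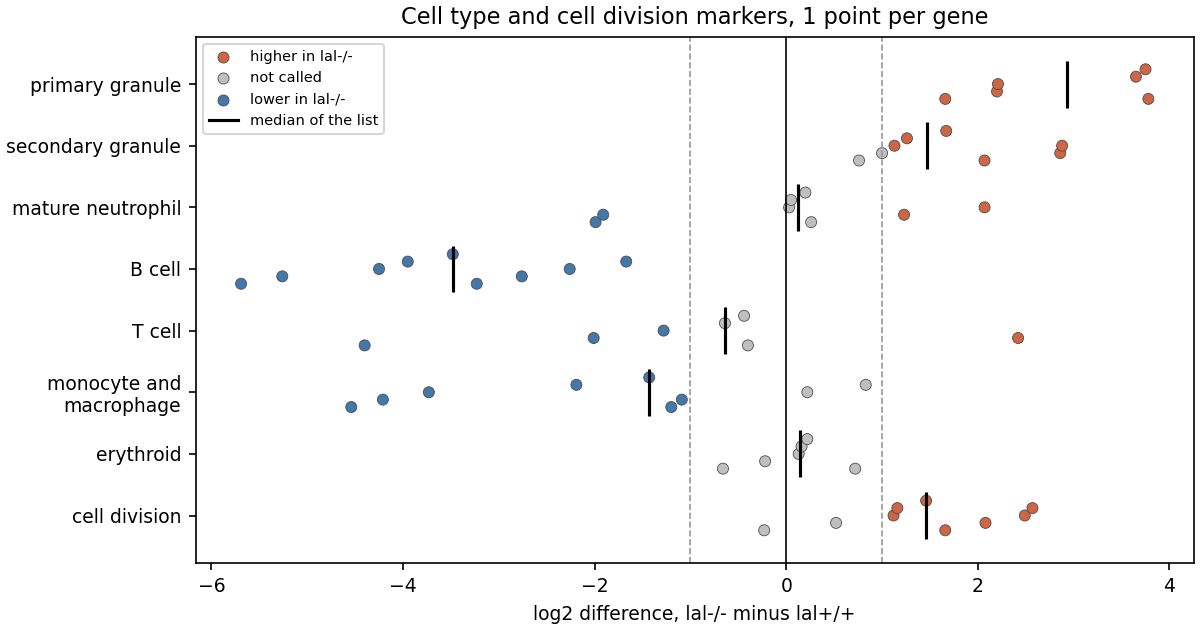
Log2 difference between *lal-/-* and *lal+/+* cells for markers of cell types and of cell division, 1 point for each gene, colored where the gene was called, with a black line at the median of each list. Primary granule markers (median 2.93) and B cell markers (median -3.48) lie at opposite ends, and the erythroid markers lie around 0.

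*Bcl2*, *Bak1* and *Bad* were called under each scaling. With arrays aligned to a common median the difference was -1.60 for *Bcl2*, 1.74 for *Bak1* and 1.31 for *Bad*, and with the values as deposited it was -1.78, 1.57 and 1.13. Leaving out 1 array in turn gave -1.99 to -1.84 for *Bcl2* and 1.30 to 1.52 for *Bak1*. For *Bad* it gave 0.97 to 1.09, which crosses the fold threshold. *Bcl2l1* was 0.70 (adjusted p = 0.00328) with a common median and 0.52 (adjusted p = 0.0184) with the values as deposited, past the adjusted p in both and short of the fold threshold. In an ordinary linear model without moderated variances 0 of 19938 genes were called (5691 had an unadjusted p under 0.05, against 8085 in limma), and the adjusted p was 0.0584 for *Bcl2*, 0.0816 for *Bak1* and 0.0713 for *Bad*.

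**Figure D5:**
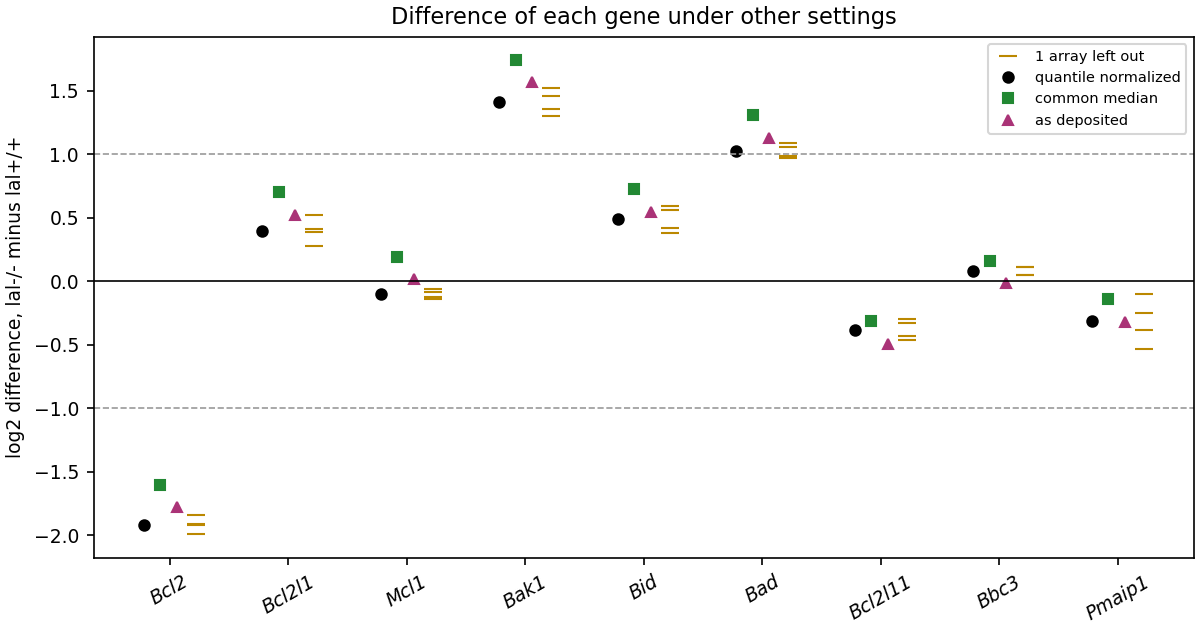
Log2 difference between *lal-/-* and *lal+/+* cells for the 9 measured members with quantile normalized values, with arrays aligned to a common median, with the values as deposited, and with 1 array left out (dashes), with dashed lines at a 2-fold change. *Bcl2* stays below -1 and *Bak1* above 1 in all settings plotted, *Bad* crosses 1 in 2 settings, and *Mcl1* and *Bbc3* lie around 0.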

How the data were processed

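Total RNA of magnetically selected bone marrow cells was amplified and measured on whole-transcript Affymetrix mouse arrays, 2 per genotype. The labels name NuGEN reagents for the amplification and the methods an Affymetrix kit. The deposited values are on the log2 scale and come from the RMA procedure that the authors ran in Partek Genomics Suite, and the submitters' processing notes name GCOS 1.1. The sources used here name no genome build. Per-sample columns left out were 0.

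Column medians as deposited lay up to 0.208 apart, above a limit of 0.1, so the 4 columns were quantile normalized. Of 35557 probe sets, 21789 name 1 gene, 1621 name several and were not used as genes, and 12147 are not listed in the gene table. Symbols of 21698 were matched through gene IDs and 91 kept as written. A linear model of genotype was fitted to the probe sets that name 1 gene in limma (version 3.58.1, R version 4.3.3). Its moderated variances had 4.83 prior degrees of freedom beside 2 residual ones, with Benjamini-Hochberg adjustment over these probe sets. Methods with a tissue term could not be fitted to 1 tissue. A gene with several probe sets was read from the brightest on average. Array number and spread limit the precision, and depth does not apply to arrays. *Bax* is not listed in the gene table used here, so 2 planned comparisons with it were not made. Summed linear signal is the sum of 2 to the power of the log2 levels. The members and lists were chosen with earlier results of these data known. Named were all members, up to 4 called genes of each list and direction, up to 3 of each marker list, and a fixed group taken whatever its result. Some genes below the level of silent genes, against the direction of their list, or past the adjusted p alone were named besides. The alternatives were other scalings, filters, variance models and thresholds, averaged probe sets per gene, a replicate block, and each array left out. The procedure was tested on simulated data.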

Additional observations from a re-analysis of the deposited data

How the results depend on the processing

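With 2 arrays of each genotype, a gene that was not called is not shown to be equal, and probe sets near the level of silent genes may understate changes. Of 135 values of the 9 members under 15 alternatives, 126 kept the direction and the side of the threshold. Filters, variance models, blocks, thresholds and averaged probe sets left the difference of each member as it was. Only the other scalings and the fits with 1 array left out could turn a direction, so much of this count was fixed in advance. The number of members called higher was 1 to 2 and that called lower 1 in each fit with 1 array left out, where *Bad* (0.97 and 0.99) missed the fold threshold, and the pathway genes numbered 7 to 10 higher and 4 lower. An ordinary linear model without moderated variance called 0 members and 0 pathway genes in either direction. At an unadjusted p under 0.05 it had 2 members higher and 1 lower, and 22 pathway genes higher and 11 lower, against 4 and 2 members and 33 and 12 pathway genes in limma. Pathway genes called higher were 17 with a common median, 14 with the values as deposited and 24 with no fold threshold, where 11 were lower.

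Directions turned with a common median for *Mcl1* (0.19), *Casp8* (0.33), *Cflar* (0.15) and *Usp9x* (0.20), with the values as deposited for *Mcl1* (0.02), *Casp8* (0.15), *Usp9x* (0.02) and *Bbc3* (-0.01), with the mean of probe sets for *Cflar* (0.24), and with 1 array left out for *Bik* (-0.33 to 0.17, positive without *lal+/+* replicate 2) and *Bmf* (-0.06 to 0.25, negative without *lal-/-* replicate 2). The cause was not tested. With a replicate block 2 members were higher and 1 lower, and 8 and 4 pathway genes, as without it, and *Bid* had an adjusted p of 0.0554. The deviations of same-numbered arrays correlated at -0.175 and the arrays share only a number. The crossed block, chosen after seeing the data, gave 2 and 1 members and 8 and 4 pathway genes.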

Other observations

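The genes in this paragraph were chosen after their values were seen. VDAC2 is the channel that binds BAK in the outer mitochondrial membrane, and *Vdac2* read 11.17 and 11.28 in *lal+/+* and 12.06 and 12.10 in *lal-/-* cells. Both *lal-/-* arrays were high, as for *Bak1*, and the 1.81-fold difference (0.85 on the log2 scale, adjusted p = 0.00234 from limma) was short of the fold threshold and passed it with arrays aligned to a common median (1.20). MCL1 protein is removed through ubiquitin ligases, among them FBXW7, and stabilized by the deubiquitinase USP9X. *Fbxw7* read 9.26 and 9.22 in *lal+/+* and 8.29 and 8.58 in *lal-/-* cells (log2 difference -0.81, adjusted p = 0.00569), and *Usp9x* read 9.12 and 9.19 against 8.76 and 8.77 (-0.39, adjusted p = 0.0494). Both were short of the fold threshold. With a common median *Fbxw7* was -0.24 and *Usp9x* 0.20, neither past the adjusted p (0.337 and 0.344).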
